A study of Rattus norvegicus with 16 samples.

Results

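The expression of 3 cell adhesion receptors and of osteopontin was followed in cultured rat microglia: Icam1 (ENSRNOG00000020679), Vcam1 (ENSRNOG00000014333), Cd44 (ENSRNOG00000006094) and Spp1 (ENSRNOG00000043451, osteopontin). The 4 genes were chosen by identifier from 30560 listed, and all 4 were among the 11902 genes with enough counts to be tested. Their symbols came with that choice and were not checked, since 0 of the 47357 genes in the RefSeq table used here (GRCr8) are paired with an Ensembl identifier. RNA was sequenced from wild type primary rat microglia, the macrophages that reside in the brain, at day 12 in vitro, in 4 groups of 4 libraries. Control cultures received neither agent. The ApoA-I group received apolipoprotein A-I, which makes up most of the protein of high-density lipoproteins, at 100 ug/ml in the medium. The LPS group received lipopolysaccharide, a Toll-like receptor agonist from the outer membrane of Gram-negative bacteria, at 100 ng/ml for 20 hours. The last group received LPS for 20 hours together with ApoA-I, each at the same concentration. Nothing in the labels tells whether replicates came from separate cultures or animals; the p-values then measure only how these libraries spread, which may be technical.

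ICAM-1 and VCAM-1 are cell surface proteins of the immunoglobulin superfamily that serve as counter-receptors for leukocyte integrins: ICAM-1 binds LFA-1 and Mac-1, and VCAM-1 binds VLA-4. They are best known on endothelium, where inflammatory signals acting through NF-kappaB raise both and so let leukocytes attach, and microglia are known to carry ICAM-1. CD44 is the main receptor for hyaluronan, a polysaccharide of the extracellular matrix, and also binds osteopontin, a secreted phosphoprotein that engages integrins through an RGD sequence and is made by activated microglia and macrophages.

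The promoters of the pair of immunoglobulin-family receptors are shown because both are textbook targets of NF-kappaB, whereas their transcripts moved in opposite directions with LPS in these libraries. The windows are those of RefSeq (build GRCr8), from 250 bases before to 50 after the annotated start, written 5′ to 3′ on the gene's strand. Capitals mark matches, on either strand, to any of 5 motifs: a kappaB motif (GGNNNTTCC), AP-1 (TGANTCA), SP1 (GGGCGG), the interferon-stimulated response element (GAAA and GAAA, NN between them) and the TATA box (TATAAA). The Icam1 window is chr8:27829595-27829894 on the plus strand, and the Vcam1 window is chr2:206742734-206743033 on the minus strand.
Icam1: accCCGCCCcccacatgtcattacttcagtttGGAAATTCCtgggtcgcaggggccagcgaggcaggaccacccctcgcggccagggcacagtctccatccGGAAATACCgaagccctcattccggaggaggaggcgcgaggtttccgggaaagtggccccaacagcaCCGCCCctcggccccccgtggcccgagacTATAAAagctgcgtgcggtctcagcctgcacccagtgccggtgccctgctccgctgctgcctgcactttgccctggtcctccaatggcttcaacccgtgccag
Vcam1: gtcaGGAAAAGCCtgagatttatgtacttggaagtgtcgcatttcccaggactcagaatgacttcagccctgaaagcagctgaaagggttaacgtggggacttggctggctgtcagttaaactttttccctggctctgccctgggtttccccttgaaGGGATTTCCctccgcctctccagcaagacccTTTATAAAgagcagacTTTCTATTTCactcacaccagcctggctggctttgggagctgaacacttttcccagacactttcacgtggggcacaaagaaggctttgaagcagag
In Icam1, GGAAATTCC lay at positions -218 to -210 from the start site on the gene's strand, and GGAAATACC at -149 to -141 matched the kappaB motif on the other strand. In Vcam1, GGGATTTCC lay at -93 to -85 on the gene's strand, and GGAAAAGCC at -246 to -238 matched on the other strand. Each window thus held 2 kappaB matches, and 18.3% of the 33469 RefSeq promoter windows of this length held at least 1. Both held a TATA box on the gene's strand, at -53 to -48 in Icam1 and at -60 to -55 in Vcam1, as did 8.80% of windows. In Vcam1 this overlapped a second match on the other strand. Icam1 held 2 SP1 matches on the other strand (33.1% of windows held 1 or more on either strand), and Vcam1 held 1 interferon-stimulated response element match on the other strand (3.92% of windows). The Cd44 window held no match to the 5 motifs, and the Spp1 window held only a TATA box match at -204 to -199. AP-1 matched in none of the 4 windows and in 7.33% of all windows. A match describes the letters of a window, and no match says only that these letters are not in it.

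Libraries held between 12304916 and 17262383 estimated counts. Levels are given as CPM, counts scaled to the library size adjusted by TMM, which balances libraries on the bulk of genes, and each as mean ± SD over 4 libraries. A change was called when edgeR's quasi-likelihood test gave a Benjamini-Hochberg adjusted p under 0.05 over all 11902 genes; its fold change is given in log2 units with its SE. With libraries scaled by their totals instead, the median log2 change of all tested genes in LPS against Control moved from -0.037 to -0.42, so small changes are relative to the scaling. The share of counts in 8 abundant genes that varied together within groups was between 1.61% and 12.8% per library. It was 9.43% in ApoA-I 2 and at most 2.66% in the other ApoA-I libraries. Those others lay below every Control library, where the share ranged from 4.05% to 11.9%. The share thus differed between most ApoA-I libraries and Control. It was 2.08% in LPS 4 against 10.24% to 11.96% in the other LPS libraries. The label microglia was not checked against marker genes, because identifiers other than those of the 4 genes could not be paired with symbols here. In RNA from whole cultures, fewer cells that express a gene and less of its RNA per cell cannot be told apart.

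**Figure D1:**
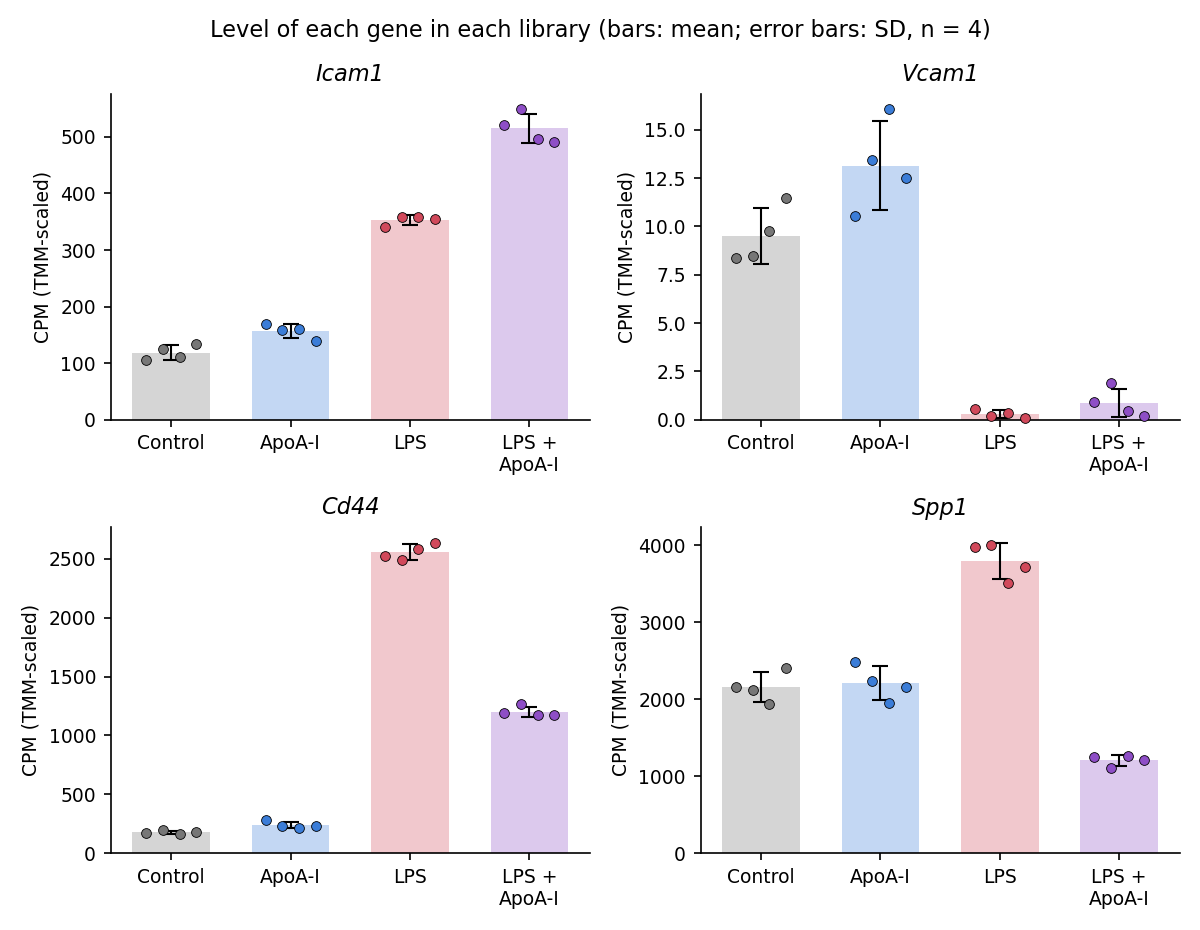
TMM-scaled CPM (vertical axis, from 0) of Icam1, Vcam1, Cd44 and Spp1 in each of the 16 libraries by group (horizontal axis); points are libraries, bars are means and error bars are SDs (n = 4). Icam1 was highest with LPS and ApoA-I together (515 CPM), Cd44 and Spp1 were highest with LPS alone (means of 2559.5 and 3799.75 CPM), and Vcam1 was nearly lost in both groups with LPS.

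Icam1 rose with LPS and was higher still when ApoA-I was present. In replicates 1 to 4 it stood at 106, 124, 111 and 134 CPM in Control libraries and at 169.8, 158, 161 and 139 CPM in ApoA-I libraries. LPS libraries had 341, 359, 358 and 356 CPM, and those with LPS and ApoA-I had 522, 549, 497 and 492 CPM. The order was Control, ApoA-I, LPS, LPS with ApoA-I, and no library of one group overlapped the next. Group means were 119 ± 12.8, 157 ± 12.8, 353 ± 8.70 and 515 ± 26.4 CPM in that order (SD, n = 4 each). Here and below, overlap between groups was examined for the 4 genes only. How often other tested genes separate in this way was not counted, so separation is not shown to be particular to these genes. LPS raised Icam1 2.98-fold over Control (log2 fold change 1.57, SE 0.068, edgeR adjusted p = 2.4e-15). ApoA-I alone raised it 1.32-fold (log2 fold change 0.40, SE 0.067, edgeR adjusted p = 0.00177). In LPS-treated cells ApoA-I raised it 1.46-fold (log2 fold change 0.54, SE 0.066, edgeR adjusted p = 3.99e-07). With ApoA-I present, LPS raised it 3.28-fold (log2 fold change 1.71, SE 0.068, edgeR adjusted p = 1.12e-15). With both agents Icam1 was 4.34-fold above Control (log2 fold change 2.12, SE 0.069, edgeR adjusted p = 3.5e-17). The effect of ApoA-I with LPS exceeded that without LPS by 0.14 log2 units (95% interval -0.055 to 0.33), a difference that did not pass the test (edgeR adjusted p = 0.246).

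Vcam1, in contrast, was almost lost in LPS-treated microglia, from a low level in untreated cells. In replicates 1 to 4 it had 132, 128, 177 and 183 estimated counts in Control libraries and 160, 190, 247 and 181 in ApoA-I libraries. LPS libraries had 6, 2, 5 and 1 counts, and those with LPS and ApoA-I had 11, 29, 6 and 3. Every library with LPS lay below every library without it. The Control mean was 9.52 ± 1.45 CPM, the ApoA-I mean 13.1 ± 2.31, the LPS mean 0.302 ± 0.212 and the mean with both agents 0.858 ± 0.739 CPM (SD, n = 4 each). LPS lowered Vcam1 30.9-fold (log2 fold change -4.95, SE 0.40, edgeR adjusted p = 2.21e-10). In the presence of ApoA-I, LPS lowered it 14.9-fold (log2 fold change -3.89, SE 0.31, edgeR adjusted p = 2.64e-10). Against Control, cells with both agents were 10.8-fold lower (log2 fold change -3.43, SE 0.32, edgeR adjusted p = 2.7e-09). Without LPS with ApoA-I 2, which held 29 of the 49 counts of its group, the log2 fold change of this group was -4.69 against ApoA-I and -4.23 against Control. On log2(TPM + 1), a scale that compresses the change of low genes, the Vcam1 difference from Control was -2.44 for LPS alone and -2.24 for both agents, and the difference of both agents from ApoA-I was -2.70.

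The effect of ApoA-I on Vcam1 was poorly determined. Without LPS the fitted difference was 0.46 log2 units (95% interval -0.0062 to 0.93) and did not pass the test (edgeR adjusted p = 0.273). Control 4, with 11.5 CPM, lay above ApoA-I 1, with 10.5 CPM, and the other libraries kept the order of their groups. In TPM these ranges did not overlap, with Control at most 6.6 and ApoA-I at least 6.89. On log2(TPM + 1) the difference, 0.46, did not pass the test either (limma adjusted p = 0.113). With LPS, the 4 libraries with ApoA-I held 49 counts in sum against 14 in LPS libraries, and the ranges overlapped. The fitted change of 1.52 log2 units (SE 0.60) passed the test narrowly (edgeR adjusted p = 0.0375). It no longer passed without LPS with ApoA-I 2, the library with 29 counts (0.72, edgeR adjusted p = 0.322), without LPS with ApoA-I 1 (1.504, 0.0605), or without LPS 2, 3 or 4 (1.38, 1.66 and 1.21, with edgeR adjusted p of 0.0869, 0.0565 and 0.115). LPS 4, which held 1 count, is also the library with the low share of the co-varying genes; with the log2 share of those genes as a covariate, chosen after seeing the data, the change was 1.49 (edgeR adjusted p = 0.0434). It also did not pass with the replicate number as a block (1.51, edgeR adjusted p = 0.0521) or on log2(TPM + 1), where the change was 0.20 (limma adjusted p = 0.293). The interaction was 1.06 log2 units (95% interval -0.28 to 2.39) and did not pass the test (edgeR adjusted p = 0.199). On TPM its sign depended on the value added before the logarithm. It was -0.26 on log2(TPM + 1) (limma adjusted p = 0.37) and 0.12 on log2(TPM + 0.1) (limma adjusted p = 0.876).

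Cd44 showed the largest rise of the 4 genes with LPS, and ApoA-I moved it in opposite directions with and without LPS. In replicates 1 to 4, Control libraries had 168, 195, 165 and 176 CPM, and ApoA-I libraries had 281, 233, 217 and 233 CPM. LPS libraries had 2527, 2487, 2584 and 2639 CPM, and those with LPS and ApoA-I had 1194, 1265, 1171 and 1175 CPM. The order was Control, ApoA-I, LPS with ApoA-I, LPS, without overlap between neighbours; the closest were Control 2 and ApoA-I 3. Group means in that order were 176 ± 13.6, 241 ± 27.9, 1201 ± 43.8 and 2559.5 ± 66.4 CPM (SD, n = 4 each). LPS raised Cd44 14.6-fold (log2 fold change 3.86, SE 0.076, edgeR adjusted p = 3.25e-21), and 217 of the 11902 tested genes had a more positive change. With ApoA-I present the LPS response was 4.98-fold (log2 fold change 2.32, SE 0.071, edgeR adjusted p = 1.71e-17). ApoA-I alone raised Cd44 1.37-fold (log2 fold change 0.46, SE 0.069, edgeR adjusted p = 0.000679). In LPS-treated cells it lowered Cd44 2.13-fold (log2 fold change -1.09, SE 0.068, edgeR adjusted p = 1.09e-11). The difference between these effects was -1.55 log2 units (95% interval -1.75 to -1.35, edgeR adjusted p = 4.51e-11). Cells with both agents still had 6.83-fold more Cd44 than Control (log2 fold change 2.77, SE 0.072, edgeR adjusted p = 1e-18).

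Spp1 was abundant in every group, rose with LPS alone and fell below the untreated level when ApoA-I was added to LPS. In replicates 1 to 4 it stood at 2156, 2124, 1937 and 2411 CPM in Control libraries and at 2487, 2232, 1951 and 2152 CPM in ApoA-I libraries. LPS libraries had 3978, 3999, 3505 and 3716 CPM, and those with LPS and ApoA-I had 1256, 1104, 1259 and 1216 CPM. The Control and ApoA-I libraries overlapped; all LPS libraries lay above both groups and all libraries with LPS and ApoA-I below both. The Control mean was 2157 ± 195 CPM, the ApoA-I mean 2205 ± 222, the LPS mean 3799.75 ± 235 and the mean with both agents 1209 ± 72.3 CPM (SD, n = 4 each). LPS raised Spp1 1.76-fold (log2 fold change 0.82, SE 0.076, edgeR adjusted p = 1.84e-09). This rise depended in size on the scaling: it was 0.43 log2 units with library totals (edgeR adjusted p = 7.89e-05) and 0.39 on log2(TPM + 1) (limma adjusted p = 0.000901). ApoA-I alone left a difference of 0.032 log2 units (95% interval -0.12 to 0.19) that did not pass the test (edgeR adjusted p = 0.873). The sign of this difference turned without Control 3 (-0.017) or without ApoA-I 1 (-0.030).

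In LPS-treated cells ApoA-I lowered Spp1 3.14-fold (log2 fold change -1.65, SE 0.077, edgeR adjusted p = 8.86e-14). With both agents Spp1 was 1.78-fold below Control (log2 fold change -0.84, SE 0.076, edgeR adjusted p = 1.72e-09) and 1.82-fold below ApoA-I alone (log2 fold change -0.87, SE 0.076, edgeR adjusted p = 1.02e-09). The LPS response of osteopontin was thus positive without ApoA-I and negative with it, and the difference was -1.68 log2 units (95% interval -1.91 to -1.46, edgeR adjusted p = 5.69e-11).

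**Figure D2:**
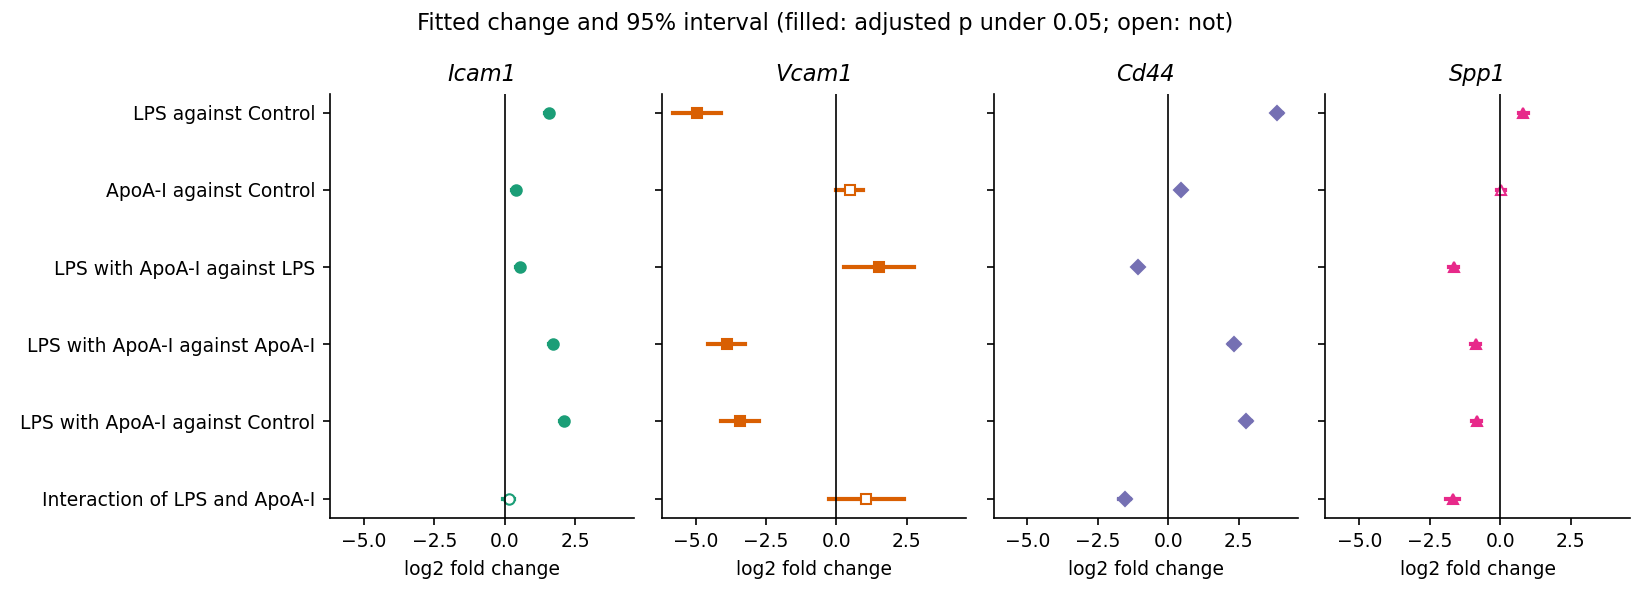
Fitted log2 fold change (horizontal axis) of each gene in 6 comparisons (vertical axis). Lines are approximate 95% intervals derived from the F statistic of edgeR. Filled symbols have an adjusted p under 0.05 and open symbols do not. Icam1 lies to the right of 0 throughout, with an open interaction, Cd44 and Spp1 lie to the left in LPS with ApoA-I against LPS and in the interaction, and the Vcam1 intervals are the widest.

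In LPS against Control, 4 of the 4 genes were called, where 74.7% of all tested genes were. Icam1, Cd44 and Spp1 were higher (36.3% of tested genes were called higher) and Vcam1 was lower (38.4%). The median change was 1.20 log2 units over the 4 genes and -0.037 over all tested genes. A call alone is therefore common in this comparison, and the sizes say more: 1.82% of tested genes had a more positive change than Cd44, 6.37% than Icam1 and 14.6% than Spp1, and 1.15% had a more negative one than Vcam1.

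In ApoA-I against Control, 2 of the 4 genes, Icam1 and Cd44, were called, both higher, where 4.27% of tested genes were called and 2.50% were called higher. The median change was 0.43 log2 units over the 4 genes and -0.00028 over all tested genes. The call of Icam1 held in all 26 alternatives tried, with adjusted p from 5.4e-07 to 0.0363, and that of Cd44 with adjusted p from 1.81e-09 to 0.0308. The total number of calls was less stable: from 508 with all libraries it moved to 284, 325, 202 and 775 when Control 1, 2, 3 or 4 was left out in turn, and to 186 when ApoA-I 1 was left out. ApoA-I 1 was the highest library of its group for Icam1, Cd44 and Spp1 and the lowest for Vcam1. Without it the change was 0.36 log2 units for Icam1 (edgeR adjusted p = 0.00781) and 0.37 for Cd44 (edgeR adjusted p = 0.00167). With the log2 share of the 8 co-varying genes as a covariate, chosen after seeing the data, both changes were 0.39 log2 units, with edgeR adjusted p of 0.012 for Icam1 and 0.00483 for Cd44.

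In LPS with ApoA-I against LPS, 4 of the 4 genes were called, where 51.4% of tested genes were. Icam1 and Vcam1 were higher (26.4% of tested genes were called higher), Vcam1 with the exceptions given above, and Cd44 and Spp1 were lower (24.9%). The median change was -0.27 log2 units over the 4 genes and 0.029 over all tested genes. A more negative change than that of Spp1 was found in 2.28% of tested genes, and 4.78% had a more negative one than Cd44. Against ApoA-I alone, the libraries with both agents gave calls for 4 of the 4 genes, where 69.4% were; Icam1 and Cd44 were higher (34.5%) and Vcam1 and Spp1 lower (34.8%). The medians were 0.42 log2 units over the 4 genes and -0.013 over all tested genes. In LPS with ApoA-I against Control, 4 of the 4 genes were called, where 69.6% were, with the same division: Icam1 and Cd44 higher (34.4%) and Vcam1 and Spp1 lower (35.2%). The medians were 0.64 and -0.011 log2 units. The interaction was called, with a negative value, in 2 of the 4 genes, Cd44 and Spp1, where 41.0% of tested genes were called and 20.2% with a negative value. The medians were -0.70 log2 units over the 4 genes and 0.042 over all tested genes.

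The LPS response was measured in separate libraries without ApoA-I (LPS against Control) and with it (LPS with ApoA-I against ApoA-I). Icam1 changed by 1.57 log2 units in the first and 1.71 in the second, Cd44 by 3.86 and 2.32, and Vcam1 by -4.95 and -3.89. These genes kept their direction, and the difference passed the test for Cd44 only. Spp1 changed by 0.82 and -0.87 log2 units. It was 1 of 232 genes called higher in the first and lower in the second, 1.95% of all tested genes. These were 5.36% of the 4326 genes called higher without ApoA-I and 5.60% of the 4144 called lower with it. The effect of ApoA-I was compared in the same way. Cd44 was 1 of 110 genes that ApoA-I raised without LPS and lowered with LPS, 0.92% of all tested genes. These were 37.0% of the 297 raised and 3.70% of the 2969 lowered. Icam1 was 1 of 103 raised in both, 0.87% of all tested genes, 34.7% of the 297 and 3.28% of the 3145. Among all tested genes, ApoA-I lowered 24.9% and raised 26.4% with LPS.

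**Figure D3:**
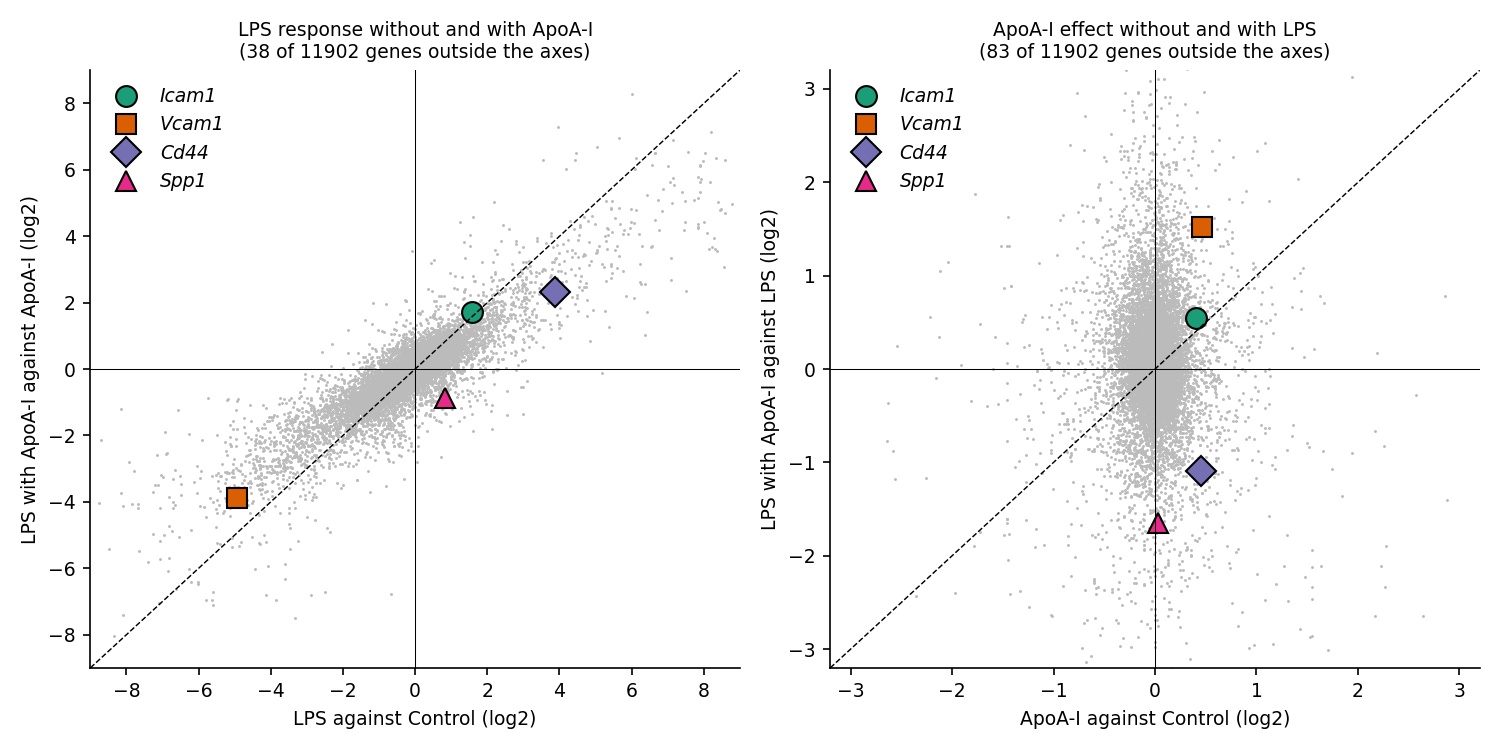
Log2 fold changes of all tested genes (grey points) with the 4 genes as coloured symbols: left, LPS response without ApoA-I (horizontal) against that with ApoA-I (vertical); right, effect of ApoA-I without LPS (horizontal) against that with LPS (vertical). The dashed line marks equal values; 38 genes on the left and 83 on the right lie outside the axes. Spp1 lies in the lower right quadrant on the left (0.82 and -0.87), and Cd44 in the lower right quadrant on the right (0.46 and -1.09).

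Levels of different genes were compared on TPM, the authors' scale that divides counts by transcript length. The divisor was not the same in every library: Vcam1 had 6 counts and 0.24 TPM in LPS 1, and 2 counts and 0.27 TPM in LPS 2. In Control libraries Spp1 had 2802 ± 286 TPM and ranked 54 among all listed genes by mean TPM, Cd44 had 93.8 ± 10.7, Icam1 had 81.4 ± 9.71 and Vcam1 had 5.74 ± 0.783 TPM (SD, n = 4 each). Cd44 was 1.16 ± 0.0978 times the Icam1 level in Control, 5.56 ± 0.172 times with LPS alone and 1.796 ± 0.0361 times with both agents (ratio per library, SD, n = 4 each). The level of osteopontin was, relative to Cd44, one of its receptors, 30.02 ± 3.03 times in Control, 22.5 ± 0.748 times with ApoA-I, 3.67 ± 0.308 times with LPS and 2.48 ± 0.232 times with both agents (SD, n = 4 each). Between Control and LPS the ratio narrowed while both genes were higher, and with both agents it was lowest, with Spp1 below and Cd44 above their Control levels. With LPS the rank of Spp1 was 33, and with LPS and ApoA-I it was 130; Cd44 ranked 1432 in Control and 155 in LPS. The order Spp1, Cd44, Icam1, Vcam1 held in all 16 libraries. On the TPM scale ApoA-I 1, with 3592 TPM of Spp1, lay above LPS 3, with 3278 TPM, an overlap not seen in CPM.

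**Figure D4:**
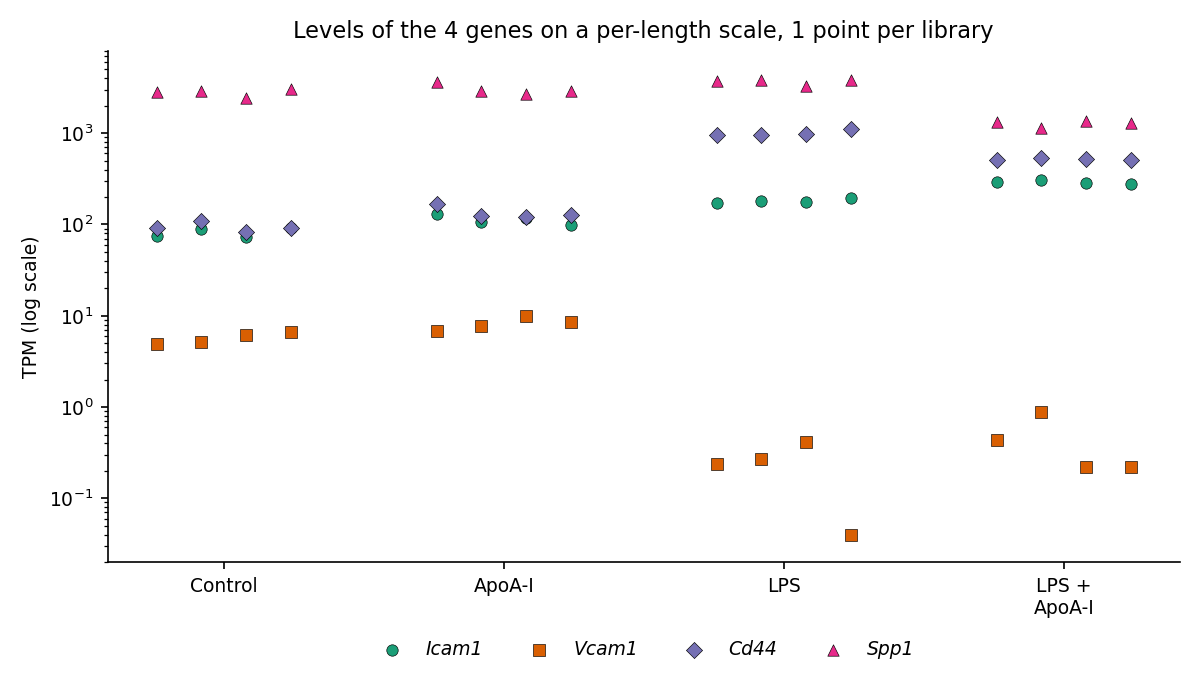
TPM of the 4 genes (vertical axis, log scale) in each of the 16 libraries by group (horizontal axis), 1 symbol per library. Cd44 and Icam1 lie close together in libraries without LPS and apart with LPS, where Cd44 reaches 1002 ± 67.2 TPM and Icam1 180.2 ± 10.2 TPM (SD, n = 4 each); Vcam1 falls below 1 TPM in all 8 libraries with LPS.

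Likeness to other genes was described by the Pearson correlation of log2 CPM over the 16 libraries, which share their groups. A large LPS effect alone therefore gives a high value. Above 0.95 lay 1010 genes with Cd44 (8.49% of 11901), 294 with Icam1 (2.47%), 197 with Vcam1 (1.66%) and 20 with Spp1 (0.168%). These numbers do not rank how rare the patterns are, because spread within groups lowers a correlation. For Vcam1 the SD was 70.1% of the mean CPM with LPS and 86.1% with both agents. The gene most like Icam1 was ENSRNOG00000006997 (r = 0.996, 16 libraries), with 239 ± 9.34, 279 ± 18.6, 496 ± 11.1 and 625 ± 8.25 CPM in Control, ApoA-I and LPS libraries and with both agents (mean ± SD, n = 4 each). The gene most like Spp1 was ENSRNOG00000023226 (r = 0.983, 16 libraries), with 38.2 ± 5.26, 38.1 ± 5.59, 67.2 ± 4.06 and 15.1 ± 0.448 CPM in the same order (SD, n = 4 each). Among the 4 genes the correlation was 0.89 between Icam1 and Cd44, -0.95 between Vcam1 and Cd44, -0.85 between Icam1 and Vcam1, and from -0.23 to 0.22 between Spp1 and each of the others.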

How the data were processed

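The authors deposited expected counts per gene, unscaled, and TPM values per gene for 16 libraries. Per the submitters' processing notes, cutadapt 1.8.1, STAR 2.7.10b and RSEM 1.3.1 were used, and the mouse build mm10 is named although all identifiers are rat; the annotation and the use of strand are not given in the sources used here, so an error in assigning reads to single genes could not be checked. Of the counts 3.24% were not whole (tolerance 0.005), but all 64 of the 4 genes were. Counts were rounded, filtered with filterByExpr (minimum count 10) and fitted for all groups together with TMM and edgeR 4.0.16 (R 4.3.3; 12 residual degrees of freedom); SE is the absolute log2 fold change over the square root of F. Alternatives used DESeq2 1.42.0 and limma 3.58.1 on log2(TPM + 1) or log2(TPM + 0.1), with genes of mean TPM of at least 1 or unfiltered. The edgeR fit was tried on simulated counts in which few genes changed, reading only LPS against Control. That trial does not cover scaling when most genes change, the interaction, or counts as low as those of Vcam1 with LPS. Log2 CPM used a prior count of 2. No replicates were merged, since all 24 pairs within groups differed beyond sampling noise (chi-square over its degrees of freedom at least 3.07). Genes, lists and motifs were chosen with earlier results of these data known. The naming rule took the 4 genes whatever their values and, for want of symbols, the 2 identifiers most like Icam1 and Spp1. Planned lists (integrins, other adhesion genes, selectins, hyaluronan and Cd44 partners, matricellular proteins, cell type markers) were not applied, because identifiers could not be paired with symbols. Promoters were matched by symbol for 4 of 4 genes; protein sequences were not used here.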

Additional observations from a re-analysis of the deposited data

Results flagged for a closer look

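By the interaction test of edgeR, the effect of ApoA-I with LPS differed from that without LPS for Cd44 and Spp1. The differences were -1.55 log2 units for Cd44 and -1.68 log2 units for Spp1. Such a call is common in this series: 41.0% of tested genes had one, and 20.2% had one with a negative value. In 16 sets of 4 libraries, no library stood far from the others in CPM by Dixon's ratio at its 95% critical value, and 3 did in TPM: ApoA-I 1 for Cd44 (166.7 TPM), LPS 4 for Cd44 (1102 TPM) and LPS 3 for Spp1 (3278 TPM). Chance alone gives about 1 such library in 20 sets. LPS 4 also had the lowest share of the 8 co-varying genes in its group (2.08%), and the part of that share in the TPM value was not tested. On TMM-scaled counts, where LPS 4 did not stand out, the Cd44 change in LPS against Control was 3.85 log2 units without it. With it the change was 3.86, which does not bear on the TPM value.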

How the results depend on the processing

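Of 24 results (4 genes in 6 comparisons), 21 kept their direction and their side of the threshold in all alternatives, and so did 606 of 619 single refits. For Vcam1 in LPS with ApoA-I against LPS, the change was 1.51 with the replicate block, 0.20 on log2(TPM + 1) with and without the filter and 0.65 on log2(TPM + 0.1), none past the threshold, and from 0.72 to 1.94 leaving out 1 library; fitting only the 2 groups gave no value, because Vcam1 did not pass the count filter there. Its interaction was -0.26 on log2(TPM + 1), with and without the filter, and 0.12 on log2(TPM + 0.1). The sign on TPM thus depended on the value added before the logarithm. Spp1 in ApoA-I against Control ranged from -0.030 to 0.090 leaving out 1 library. The cause was not tested. Over all genes, calls in ApoA-I against Control were 819 with DESeq2, 94 with only the groups compared, 246 on log2(TPM + 1), 239 on log2(TPM + 0.1), 100 without the TPM filter, 224 with the covariate added after seeing the data, and 186 to 775 leaving out 1 library, against 508; the other 5 counts stayed within 1.5 times. Higher genes made up 48.6% of calls with TMM and 25.5% with library totals in LPS against Control; for ApoA-I against Control these shares were 58.5% and 83.1%, for both agents 51.4% and 71.8% against LPS, 49.8% and 26.7% against ApoA-I and 49.4% and 31.2% against Control, and for the interaction 50.7% and 65.1%. Same-numbered libraries did not deviate together (correlations from -0.18 to 0.18, above 0.1 in 3 of 24 pairs), so the numbers were not taken as pairs; the replicate block gave 469 calls in ApoA-I against Control and changed no other call of the 4 genes. Depth limits what can be said of Vcam1 with LPS, at 1 to 29 counts per library.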
